A study of Mus musculus with 6 samples.

Results

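The genes described here encode the glucose transporters, the enzymes of glycolysis, the enzyme subunits and carriers that form and export lactate, and the pentose phosphate pathway. They were chosen by name, as a list of 33 genes, with earlier results of these data known. Of the 33, 29 had at least 1 probe set that the array's annotation assigns to exactly 1 gene, among 18193 such genes in all. Gpi1, Eno1 and G6pdx had no such probe set, and Gapdh had one only among the array's control probe sets, whose values are given apart. The cells were Ba/F3, a mouse pro-B line that needs interleukin-3. All 6 cultures carried the SPAG9-JAK2 fusion, a kinase gene joined to a scaffold gene, in a retroviral Tet-On system. The 3 induced cultures received doxycycline at 500 ng/ml to switch the fusion on, the 3 uninduced cultures received none, and RNA was taken after 48 hours for Affymetrix 3′ expression arrays. No array held cells with doxycycline but without the fusion, so the drug and the fusion cannot be told apart, and the labels do not say whether the line was 1 clone or whether interleukin-3 was in the medium.

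Glycolysis breaks glucose down to pyruvate in the cytosol and yields ATP, and many dividing blood cells turn much of that pyruvate into lactate and export it. The pentose phosphate pathway branches off at glucose 6-phosphate and gives NADPH for biosynthesis and ribose for nucleotides. Many genes of glucose uptake and glycolysis are known targets of the hypoxia-inducible factor HIF and of MYC, and signalling through JAK2 is known to act on glucose use in blood cells.

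Values are the deposited signals on a linear scale, or levels as log2(signal + 16). Fold changes are differences of mean level, induced minus uninduced, with the standard error (SE) of limma, which was fitted across all 18193 genes with Benjamini-Hochberg adjustment. The arrays did not group cleanly by label. Uninduced replicate 1 had correlations of 0.965 to 0.971 with the 3 induced arrays over all genes, against 0.963 and 0.964 with uninduced replicates 2 and 3, which correlated at 0.983 with each other. The results below therefore give uninduced replicate 1 apart. The Actb control probe sets had a 3′ over 5′ ratio of 1.57 on induced replicate 1 and 1.60 on uninduced replicate 1, against 1.14 and 1.15 on the other induced arrays and 1.32 and 1.37 on the other uninduced arrays. The Gapdh control probe sets did not share this pattern. Their ratio was 0.66, 0.61 and 0.70 on the induced arrays and 0.69, 0.79 and 0.76 on the uninduced arrays. Whether this ratio, a measure of RNA integrity and labelling, bears on the gene values was not tested. All 3 interleukin-3 receptor genes lay above the background level, a mean log2(signal + 16) of 5.86 (a signal of 42.1), which was the 90th percentile of 22 liver and brain genes. Of the 11 measured B-lineage markers 4 did so in uninduced cells (Cd79b, Pax5, Vpreb1 and Igll1) and 2 of these in induced cells. The other 7, Cd79a, Ebf1, Rag1, Rag2, Blnk, Il7r and Cd24a, did not in either group.

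Between the arrays numbered 2 and 3, the mean induced level was below the mean uninduced level for 2 of 3 transporters and 13 of 16 glycolytic genes, and above it for 4 of the 6 measured pentose phosphate genes. It was below for 9850 of all 18193 genes. Within the arrays numbered 1 the induced level was below for 3 of 3 transporters, 8 of 16 glycolytic genes and 3 of 6 pentose phosphate genes. That held for 9877 of all 18193 genes. With all 6 arrays, limma called 0 of the 29 members at the adjusted threshold of 0.05 in either direction, where it called 0.187% of all genes (0.115% higher and 0.0715% lower). At an unadjusted p under 0.05 there were 8 members (17.4% of all genes), 7 of them lower (10.3% of all genes) and 1 higher (7.14% of all genes). The 7 were Slc2a1, Slc2a3, Pfkm, Pfkp, Pgk1, Ldhb and Slc16a3. Of these, Slc16a3 had group means below the background level, and another probe set of Ldhb gave a log2 fold change of 0.31. The log2 fold change was negative for 18 of the 29 members and for 55.9% of all genes. The median log2 fold change was -1.12 over the 3 transporters, -0.57 over 16 glycolytic genes, -0.44 over 4 lactate genes and 0.22 over 6 pentose phosphate genes, against -0.06 over all genes tested. The pentose phosphate median was 0.00 with the mean of each gene's probe sets and -0.01 with the most variable one.

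Leaving out uninduced replicate 1 changed the calls. This array was set apart because of its correlations in these same data, and the fit without it rests on uninduced replicates 2 and 3 alone. Every adjusted p without this array, here and below, depends on that choice. In that fit 9 of the 29 members were lower past the threshold, namely Slc2a1, Slc2a3, Hk2, Pfkl, Pfkm, Pfkp, Aldoa, Pgk1 and Pgam1, and 0 were higher, where 7.99% of all genes were called, 4.77% lower and 3.22% higher. Their adjusted p ranged from 0.0133 to 0.0474 in limma. Without both replicate 1 arrays there were again 9 lower members and 0 higher, with Pkm in place of Aldoa, where 8.12% of all genes were called, 5.24% lower and 2.88% higher. No pentose phosphate gene and no lactate gene was called in either fit.

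**Figure D1:**
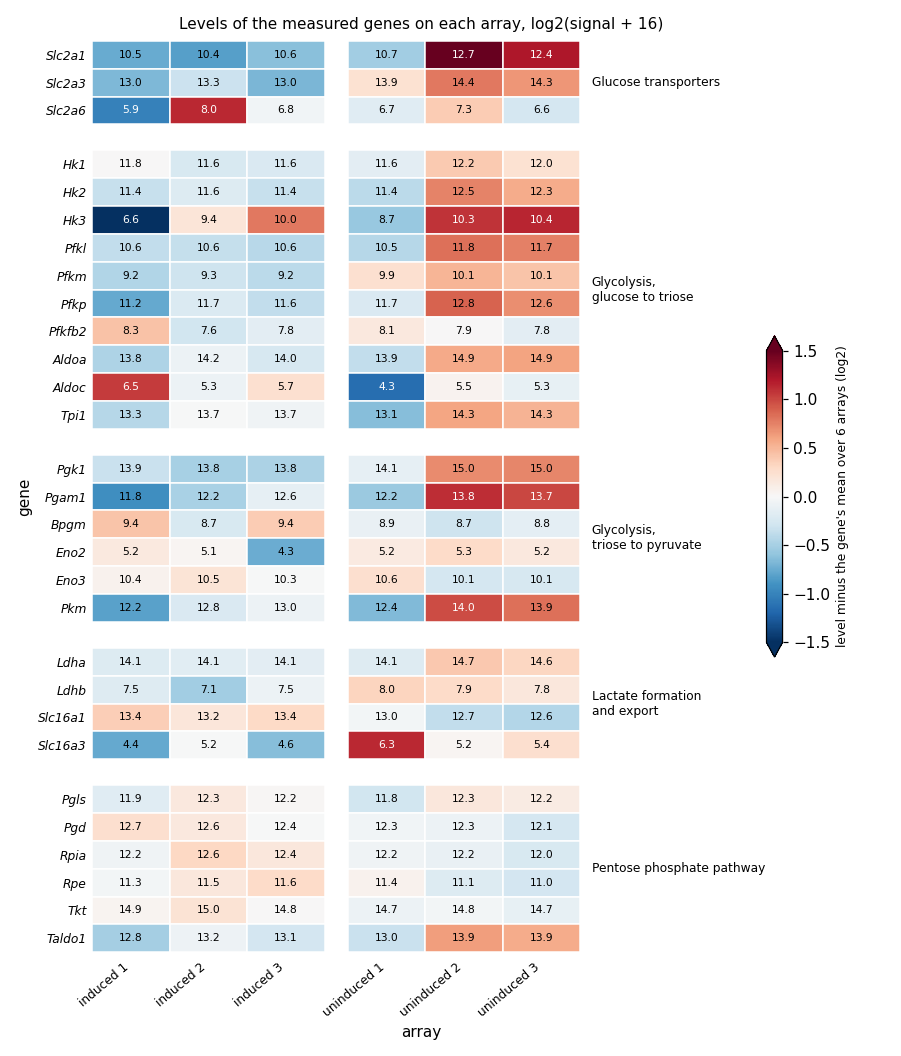
Levels of the 29 measured genes (rows, grouped by role) on each of the 6 arrays (columns, induced arrays left of uninduced arrays), as log2(signal + 16) in the cells, with colour for the distance from the gene's mean over the 6 arrays. Uninduced replicates 2 and 3 are red for most transporter and glycolysis genes, uninduced replicate 1 has the colour of the induced arrays for many of them, and the pentose phosphate genes other than Taldo1 are pale throughout.

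The promoters shown are those of the 4 members with the smallest p that have an entry in RefSeq's promoter table (GRCm38.p6). At an unadjusted p under 0.05 in limma, Pgk1, Ldhb and Pfkm were lower in induced cells and Slc16a1 was higher. Each promoter runs from 250 bases before to 50 after the annotated start, in the direction of the gene. Capitals mark ACGTG or GCGTG on either strand, the cores of hypoxia response elements. Pgk1 lies at chrX:106186850-106187149 on the plus strand. Slc16a1 lies at chr3:104638414-104638713 on the plus strand. Ldhb lies at chr6:142507908-142508207 on the minus strand. Pfkm has 4 annotated starts, and the most upstream is given, at chr15:98092339-98092638 on the plus strand.
Pgk1: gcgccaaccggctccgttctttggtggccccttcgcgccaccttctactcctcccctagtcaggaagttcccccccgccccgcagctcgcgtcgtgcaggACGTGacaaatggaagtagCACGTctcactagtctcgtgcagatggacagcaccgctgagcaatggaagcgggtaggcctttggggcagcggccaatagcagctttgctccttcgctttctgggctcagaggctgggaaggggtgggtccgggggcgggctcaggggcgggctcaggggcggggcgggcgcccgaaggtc
Slc16a1: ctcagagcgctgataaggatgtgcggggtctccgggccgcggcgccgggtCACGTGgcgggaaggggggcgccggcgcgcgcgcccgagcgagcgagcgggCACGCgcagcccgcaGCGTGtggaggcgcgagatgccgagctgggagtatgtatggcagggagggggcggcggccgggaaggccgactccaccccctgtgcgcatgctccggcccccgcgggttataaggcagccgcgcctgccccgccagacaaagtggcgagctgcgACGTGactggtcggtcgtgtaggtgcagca
Ldhb: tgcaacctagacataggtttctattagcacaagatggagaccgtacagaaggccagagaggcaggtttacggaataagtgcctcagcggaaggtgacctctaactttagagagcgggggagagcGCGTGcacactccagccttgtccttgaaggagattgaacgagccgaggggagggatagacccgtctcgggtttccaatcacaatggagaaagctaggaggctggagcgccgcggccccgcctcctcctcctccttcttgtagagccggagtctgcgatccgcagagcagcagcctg
Pfkm: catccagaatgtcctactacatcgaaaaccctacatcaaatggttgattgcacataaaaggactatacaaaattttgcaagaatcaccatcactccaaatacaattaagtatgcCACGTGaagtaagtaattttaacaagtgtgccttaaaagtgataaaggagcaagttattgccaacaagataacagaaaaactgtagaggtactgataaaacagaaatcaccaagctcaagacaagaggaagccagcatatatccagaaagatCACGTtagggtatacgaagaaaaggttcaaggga

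In Pgk1 the ACGTG matches begin 150 and 131 bases before the start, 1 on each strand. In Slc16a1 and Pfkm a CACGTG, the E-box core bound by MYC and by the glucose-sensing factors MLX and MLXIP, reads as ACGTG on both strands and so counts as 2 matches. Slc16a1 has 5 matches in all and Ldhb 1. Pfkm has 3 at the start shown and 2, 1 and 0 at its other starts, none of which holds CACGTG. Which start of Pfkm these cells used was not measured. Of the 40 promoters of 28 members, 31 (77.5%) hold ACGTG or GCGTG, against 43.8% of all 32851 promoters, and 4 of the 40 hold CACGTG, against 7.15%. The shares by role were 19 of 26 promoters for glycolysis, 2 of 2 for transporters, 5 of 5 for lactate genes and 5 of 7 for the pentose phosphate pathway. ACGTG, counted by itself, was in 13 of the 26 glycolysis promoters and in 0 of the 7 pentose phosphate promoters, against 19.6% of all promoters. GCGTG had the opposite order, in 11 of the 26 (42.3%) and in 5 of the 7 (71.4%), against 32.4% of all promoters. The members' promoters also have a higher GC content, with a median of 60.5% against 52.7% for all promoters, and the part of base composition in these shares was not tested. Starts of 1 gene count as separate promoters though their windows can overlap, and 2 of the windows of Pfkm hold the same GCGTG. A match is a short word in the window and not a measured binding site.

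Slc2a3 encodes GLUT3, a high-affinity glucose transporter. Its signal was 8011, 10219 and 7967 on the induced arrays, against 14993, 22000 and 20337 on the uninduced arrays. Every induced array lay below every uninduced array, and uninduced replicate 1 was the lowest of its group. The log2 fold change was -1.12 ± 0.21 (SE, n = 3 each), with an adjusted p of 0.107 in limma and of 0.0277 without uninduced replicate 1. The 3 other probe sets of the gene above background gave -1.53 to -1.34.

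Slc2a1 encodes GLUT1, the main glucose transporter of many blood cells. Its signal was 1416, 1349 and 1544 on the induced arrays, against 1655, 6849 and 5598 on the uninduced arrays. Uninduced replicate 1 lay just above the induced arrays, so the groups did not overlap although their means, 1436 ± 99.4 and 4701 ± 2711 (SD, n = 3 each), had very unequal spreads. The log2 fold change was -1.47 ± 0.52, with an adjusted p of 0.234 in limma, and -2.10 ± 0.16 with an adjusted p of 0.0133 without uninduced replicate 1. Its 2 other probe sets above background gave -1.56 and -1.43.

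Slc2a6, a lysosomal hexose transporter, was dim, at 42.0, 243 and 97.9 on the induced arrays and 88.0, 137 and 82.0 on the uninduced arrays. The groups overlapped, with a log2 fold change of 0.04 ± 0.54. Of the 10 other sugar transporter genes measured, 0 passed over all genes, and Slc2a8, an intracellular transporter, was the one clearly above background whose induced arrays (474, 508 and 527) all lay below the uninduced arrays (608, 676 and 587), with a log2 fold change of -0.30 ± 0.15 and an adjusted p of 0.365 in limma. Every induced array lay below every uninduced array for 13.4% of all genes.

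Hexokinases trap glucose in the cell by phosphorylating it. Hk2, the inducible form, had signals of 2715, 3000 and 2720 on the induced arrays, against 2607, 5827 and 5094 on the uninduced arrays. Uninduced replicate 1 was the lowest of all 6 arrays, whereas uninduced replicates 2 and 3 lay far above the rest. Hk1, the widely expressed form, had signals of 3537, 2990 and 3013 on the induced arrays, against 3153, 4636 and 4134 on the uninduced arrays. The log2 fold changes were -0.60 ± 0.32 for Hk2 and -0.31 ± 0.20 for Hk1, and without uninduced replicate 1 they were -0.95 with an adjusted p of 0.0318 and -0.46 with a limma adjusted p of 0.140. The other probe set of Hk1 gave 0.04.

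Hk3, a hexokinase typical of myeloid cells, had signals of 78.7, 669 and 1016 on the induced arrays, against 387, 1256 and 1307 on the uninduced arrays. The lowest array of each group was its replicate 1, and the groups overlapped (-1.11 ± 0.96). The value rests on replicate 1, being -0.06 without induced replicate 1, -1.68 without uninduced replicate 1 and -0.63 without both. The summed signal of 9 granulocyte and monocyte markers was 1106, 3304 and 3595 on the induced arrays and 1706, 7326 and 6442 on the uninduced arrays, also lowest in each group on replicate 1. Of these markers 5 were above background in induced cells and 8 in uninduced cells. The 8 mast cell and basophil markers summed to 234 to 556 on the induced arrays and 515 to 1579 on the uninduced arrays, with Mcpt8, Tpsb2, Tpsab1 and Fcer1a below background in both groups. Cpa3, Cma1, Ms4a2 and Hdc were above it in induced cells, and 3 of these in uninduced cells. The part of such marker expression in the value of Hk3 was not tested, and in RNA of whole cultures fewer cells of a type and less RNA per cell cannot be told apart.

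Phosphofructokinase commits the sugar to glycolysis, and its 3 isoenzyme genes were all lower in induced cells than in uninduced replicates 2 and 3. Pfkm, the muscle-type subunit, had signals of 564, 624 and 585 on the induced arrays, against 921, 1113 and 1048 on the uninduced arrays. The groups were well apart, and uninduced replicate 1 stood with its group. Its log2 fold change was -0.78 ± 0.16 with an adjusted p of 0.114 in limma, and -0.85 with an adjusted p of 0.0332 without uninduced replicate 1.

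Pfkl, the liver-type subunit, had signals of 1541, 1542 and 1478 on the induced arrays, against 1473, 3538 and 3358 on the uninduced arrays. Here uninduced replicate 1 was the lowest of all 6 arrays, in contrast to Pfkm. Pfkp, the platelet-type subunit, had signals of 2290, 3346 and 3027 on the induced arrays, against 3342, 7217 and 6329 on the uninduced arrays. The log2 fold changes were -0.77 ± 0.35 for Pfkl and -0.90 ± 0.33 for Pfkp, and -1.17 and -1.24 without uninduced replicate 1, with adjusted p-values of 0.0191 and 0.0383 in limma. The size for Pfkp depends on the probe set, since 2 others gave -0.73 and -0.10.

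Pfkfb2, one of the enzymes that make and break fructose 2,6-bisphosphate, the activator of phosphofructokinase, had overlapping groups (0.01 ± 0.24), and another probe set gave 1.20. Of its paralogues Pfkfb4 had signals of 452, 560 and 489 on the induced arrays, all above the 436, 392 and 408 of the uninduced arrays (0.27 ± 0.16, adjusted p of 0.440 in limma). Pfkfb3 had overlapping groups.

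**Figure D2:**
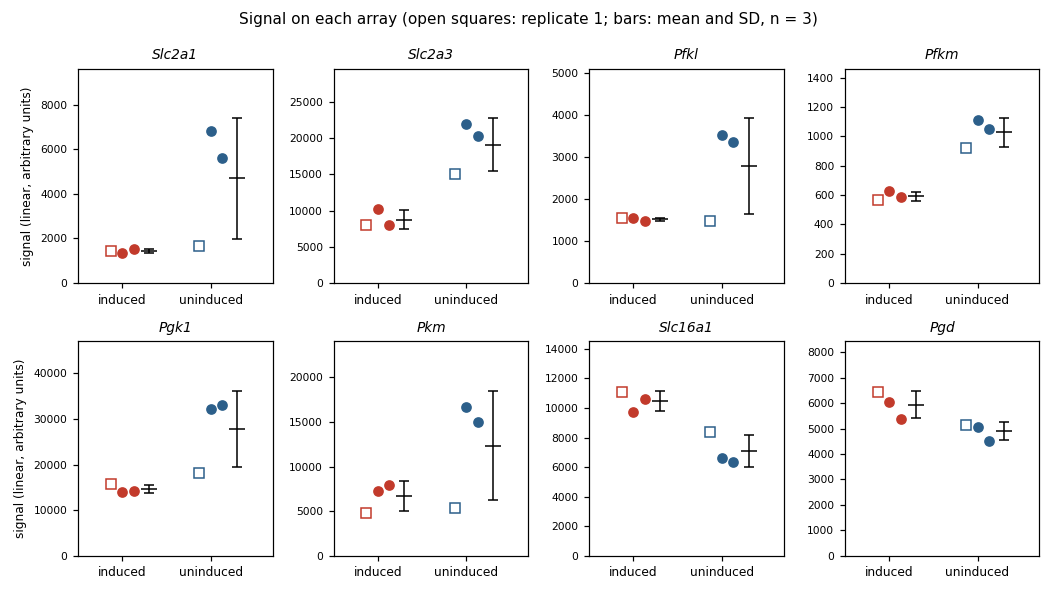
Signal (linear scale, y axis from 0) of 8 genes on the induced arrays (red, left) and the uninduced arrays (blue, right), with open squares for replicate 1 and bars for the mean and SD of n = 3. Uninduced replicate 1 lies beside the induced arrays for Slc2a1, Pfkl and Pkm, on the side of its own group for Slc2a3 and Pfkm, and in between for Pgk1, while Slc16a1 and Pgd are higher on every induced array.

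Later steps of the pathway gave differences of the same sign. Aldoa, the aldolase of most tissues, had signals of 14565, 18873 and 16830 on the induced arrays, against 15626, 29816 and 30556 on the uninduced arrays. Uninduced replicate 1 lay within the induced range. Its log2 fold change was -0.54 ± 0.30, and -0.86 with an adjusted p of 0.0474 in limma without uninduced replicate 1. Without both replicate 1 arrays that adjusted p was 0.0546. Tpi1, triosephosphate isomerase, had signals of 10163, 13566 and 13059 on the induced arrays, against 8736, 20523 and 19634 on the uninduced arrays. Its lowest array was uninduced replicate 1, and its log2 fold change was -0.32 ± 0.36. Without uninduced replicate 1 it was -0.72 with a limma adjusted p of 0.0784, and without uninduced replicate 2 it was -0.11.

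Gapdh could be read only from 3 control probe sets along its length, which were not part of the fit. The 3′ set gave signals of 21593, 24822 and 22276 on the induced arrays, against 26258, 28248 and 27512 on the uninduced arrays. The 3′ and middle sets were lower on every induced array than on every uninduced array, by 0.26 and 0.24 on the log2 scale in the means, whereas the groups overlapped for the 5′ set (-0.07).

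Pgk1, phosphoglycerate kinase, makes the first ATP of the pathway. Its signal was 15704, 14027 and 14278 on the induced arrays, against 18093, 32205 and 33022 on the uninduced arrays. Uninduced replicate 1 stood above the induced arrays but far below its own group. The log2 fold change was -0.87 ± 0.27 with an adjusted p of 0.192 in limma, and -1.15 with an adjusted p of 0.0213 without uninduced replicate 1, and 2 other probe sets gave -0.77 and -0.69.

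Pgam1, phosphoglycerate mutase, had signals of 3553, 4821 and 6133 on the induced arrays, against 4600, 14500 and 13540 on the uninduced arrays. Pkm, pyruvate kinase, had signals of 4808, 7263 and 7989 on the induced arrays, against 5341, 16686 and 15059 on the uninduced arrays. For both genes uninduced replicate 1 fell within the induced range. The log2 fold changes were -1.03 ± 0.48 and -0.75 ± 0.47. Without uninduced replicate 1 they were -1.57 with an adjusted p of 0.0365 and -1.28 with an adjusted p of 0.0526 in limma.

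Several members of the same families did not share this pattern. Eno3, the muscle-type enolase, had signals of 1306, 1443 and 1245 on the induced arrays, against 1490, 1043 and 1050 on the uninduced arrays, and its groups overlapped (0.17 ± 0.20). Bpgm, which makes 2,3-bisphosphoglycerate in red cells, had signals of 664, 413 and 644 on the induced arrays, against 453, 391 and 442 on the uninduced arrays (0.38 ± 0.23), and the groups overlapped too. Of the 5 measured erythroid markers Klf1 and Epor were above background in both groups, whereas Hba-a1, Alas2 and Slc4a1 were below it in both. The summed signal of the 5 markers was 3916, 4872 and 4435 on the induced arrays and 2369, 2320 and 2386 on the uninduced arrays. The part of this difference in the value of Bpgm was not tested. Aldoc and Eno2, brain-type isoenzymes, had mean levels below the background level in both groups (5.82 and 5.02 for Aldoc, 4.84 and 5.22 for Eno2, on the log2 scale). Induced replicate 1 of Aldoc, at a signal of 72.4, lay above it. Their fold changes of 0.80 and -0.38 carry no information on size.

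Lactate dehydrogenase converts pyruvate to lactate, and the genes of its 2 subunits differed in where uninduced replicate 1 lay. Ldha had signals of 17563, 17889 and 18059 on the induced arrays, against 17678, 26792 and 25170 on the uninduced arrays. Uninduced replicate 1 lay within the range of the induced arrays, and the log2 fold change was -0.36 ± 0.20. Ldhb had signals of 159, 123 and 171 on the induced arrays, against 236, 227 and 208 on the uninduced arrays. All 3 induced arrays lay below all 3 uninduced arrays, with a log2 fold change of -0.53 ± 0.18 and an adjusted p of 0.217 in limma. One other probe set of Ldhb above background gave 0.31, so its direction depends on the probe set.

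Slc16a1 encodes MCT1, a carrier that moves lactate and pyruvate across the plasma membrane, and it was the 1 member higher at an unadjusted p under 0.05. Its signal was 11089, 9744 and 10593 on the induced arrays, against 8354, 6625 and 6310 on the uninduced arrays. Every induced array lay above every uninduced array, as for 10.7% of all genes, and uninduced replicate 1 was the highest of its group. The log2 fold change was 0.57 ± 0.18 with a limma adjusted p of 0.195, and 0.69 with an adjusted p of 0.0503 without uninduced replicate 1. Slc16a3, the lactate exporter MCT4, had group means below the background level (11.2 ± 8.16 and 37.7 ± 23.2, SD, n = 3 each). Uninduced replicate 1 of Slc16a3, at a signal of 64.3, lay above it. Bsg, the chaperone of both carriers, had signals of 3644, 4162 and 5135 on the induced arrays, against 4082, 9288 and 8012 on the uninduced arrays, with uninduced replicate 1 again within the induced range (-0.65 ± 0.34).

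**Figure D3:**
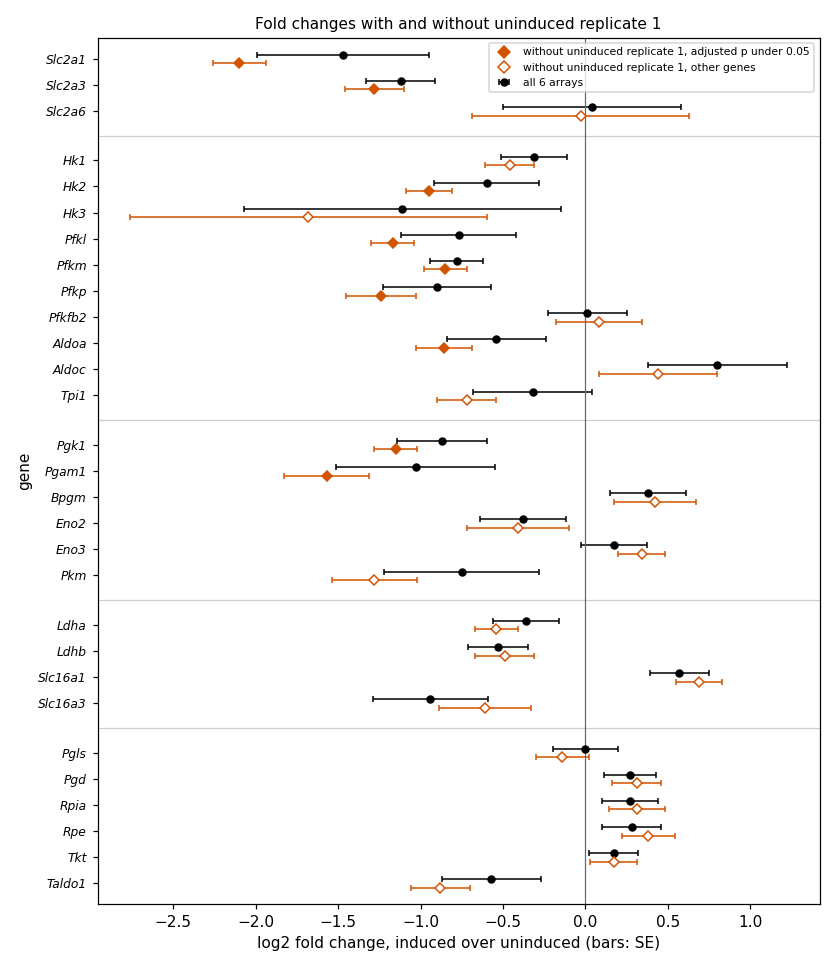
Log2 fold changes of the 29 measured genes (rows, grouped by role with lines between the groups), induced over uninduced, with bars for the SE. Black points use all 6 arrays and none of them passed the threshold, and orange diamonds leave out uninduced replicate 1, with 9 filled diamonds for genes at an adjusted p under 0.05, all of them below 0.

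Of the 6 measured pentose phosphate genes 0 passed the threshold, and the sign of their median depended on the choice of probe sets, as given above. Pgd, the 6-phosphogluconate dehydrogenase that makes NADPH in the oxidative branch, had signals of 6430, 6030 and 5362 on the induced arrays, against 5155, 5070 and 4512 on the uninduced arrays. The groups did not overlap, the log2 fold change was 0.27 ± 0.16 with a limma adjusted p of 0.429, and 3 other probe sets gave 0.26 to 0.45. Pgls, the lactonase of the step before, was level between the groups (0.00 ± 0.20).

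In the non-oxidative branch, Tkt, transketolase, had signals of 29664, 33461 and 28904 on the induced arrays, against 27224, 28050 and 26417 on the uninduced arrays. The groups did not overlap, but the log2 fold change was only 0.17 ± 0.15 and 2 dimmer probe sets gave -0.24 and 0.04. Rpia and Rpe, the isomerase and epimerase of ribulose 5-phosphate, had overlapping groups, with log2 fold changes of 0.27 ± 0.17 and 0.28 ± 0.18, and another probe set of Rpe gave -0.27. Taldo1, transaldolase, was the exception of the group. Its signal was 7169, 9649 and 8489 on the induced arrays, against 8114, 15845 and 15065 on the uninduced arrays, with uninduced replicate 1 within the induced range, as for Aldoa and Pkm (-0.57 ± 0.30, and -0.88 with an adjusted p of 0.0509 in limma without uninduced replicate 1).

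Of the 7 other pentose phosphate genes measured, 0 passed over all genes and 3 were higher at an unadjusted p under 0.05, where 7.14% of all genes were. H6pd, the glucose 6-phosphate dehydrogenase of the endoplasmic reticulum, had signals of 524, 548 and 444 on the induced arrays, against 301, 346 and 377 on the uninduced arrays (0.55 ± 0.17, adjusted p of 0.200 in limma). Rbks, ribokinase, had signals of 378, 390 and 372 on the induced arrays, against 282, 255 and 261 on the uninduced arrays (0.49 ± 0.14, adjusted p of 0.184 in limma). Prps1, which turns ribose 5-phosphate into the precursor of nucleotides, had signals of 3734, 3921 and 3773 on the induced arrays, against 3033, 2515 and 2603 on the uninduced arrays (0.49 ± 0.15, adjusted p of 0.201 in limma). In all 3 the groups did not overlap and uninduced replicate 1 stood with its group. Prps2, the paralogue of Prps1, had overlapping groups (-0.30 ± 0.27), and its 2 other probe sets above background gave 0.11 and 0.54.

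Over all 37 other pathway genes measured, 0 passed the threshold in limma. At an unadjusted p under 0.05, 3 were higher (7.14% of all genes) and 1 lower (10.3% of all genes). The median log2 fold change was -0.09, against -0.06 over all genes tested. Besides the genes named above, Minpp1, a phosphatase that also acts on 2,3-bisphosphoglycerate, had signals of 2939, 3050 and 3082 on the induced arrays, all above the 2862, 2116 and 2314 of the uninduced arrays (0.32 ± 0.17), but its 2 other probe sets above background gave -0.24 and 0.22, so its direction depends on the probe set.

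Uninduced replicate 1 separated the members into sets, given here as a description with no test. For 18 of the 29 members uninduced replicates 2 and 3 both lay above every induced array, which held for 24.0% of all genes. In 6 of these 18 (33.3%) uninduced replicate 1 lay above every induced array, against 55.9% of the 4366 genes with the same pattern. The 6 members were Slc2a1, Slc2a3, Pfkm, Pgk1, Ldhb and Slc16a3. In the other 12 it lay within or below the induced range, 10 of them the glycolytic genes Hk1, Hk2, Hk3, Pfkl, Pfkp, Aldoa, Tpi1, Pgam1, Eno2 and Pkm, the others Ldha and Taldo1. Eno2 and Slc16a3 in these sets were not above background. For 13 of the 16 glycolytic genes uninduced replicate 1 was the lowest uninduced array, which held for 34.2% of all genes.

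Within the arrays numbered 1 the median difference over the glycolytic genes was -0.05, and within those numbered 2 and 3 it was -0.69. For the transporters these medians were -0.84 and -1.23, for the lactate genes -0.27 and -0.49, and for the pentose phosphate genes 0.05 and 0.22. The mean level of the 16 glycolytic genes was 10.35, 10.51 and 10.55 on the induced arrays, against 10.40, 11.20 and 11.13 on the uninduced arrays. That of the 6 pentose phosphate genes was 12.62, 12.86 and 12.74 on the induced arrays, against 12.58, 12.77 and 12.67 on the uninduced arrays. The 2 lists thus differed in how far uninduced replicates 2 and 3 stood from the other 4 arrays.

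**Figure D4:**
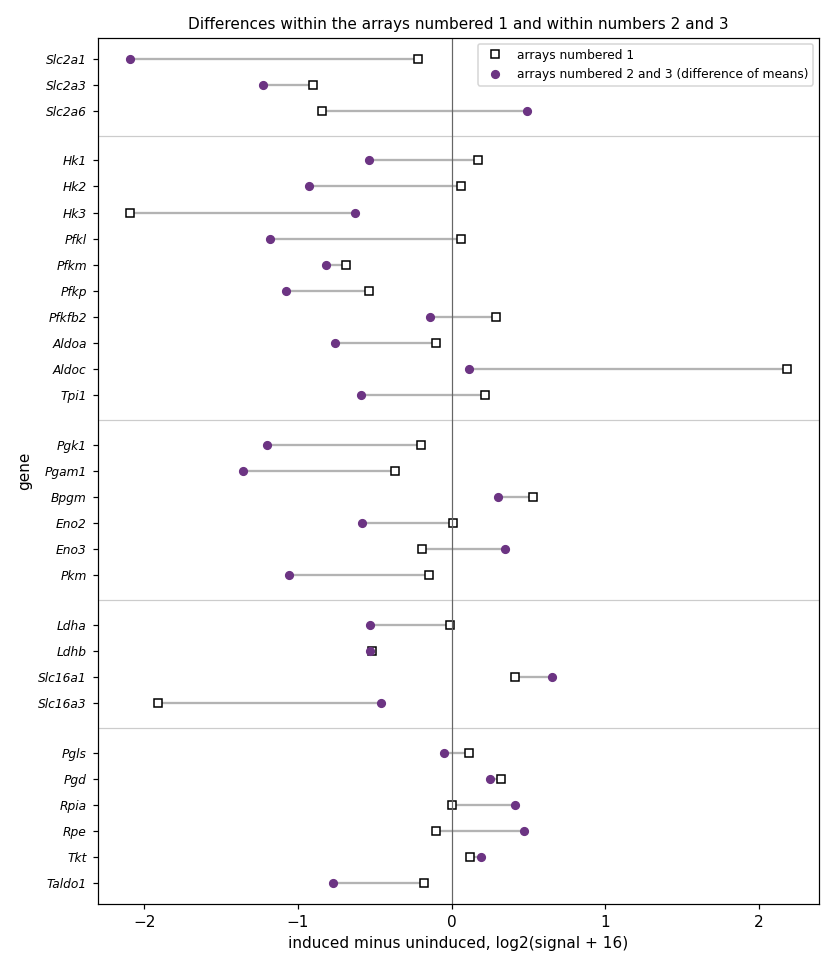
Induced minus uninduced level, in log2(signal + 16), for each of the 29 genes (rows, grouped by role with lines between the groups), within the 2 arrays numbered 1 (open squares) and between the means of the arrays numbered 2 and 3 (purple points). Most glycolytic genes are near 0 in the arrays numbered 1 and below 0 in the others, Slc2a3 and Pfkm are below 0 in both, and Slc16a1 and Pgd are above 0 in both.

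Among 8 regulators of the pathway 0 passed the threshold with all 6 arrays. At an unadjusted p under 0.05 there was 1 lower regulator (10.3% of all genes). This was Txnip, an arrestin-like protein that promotes the internalisation of glucose transporters and whose transcription is driven by MLX with MLXIP. Its signal was 1703, 2576 and 1852 on the induced arrays, against 6844, 11360 and 11649 on the uninduced arrays. Every induced array lay far below every uninduced array, with a log2 fold change of -2.26 ± 0.28, an adjusted p of 0.0599 in limma, and 0.0134 without uninduced replicate 1. Mlxip had signals of 488, 447 and 413 on the induced arrays, against 471, 769 and 851 on the uninduced arrays (-0.57 ± 0.25, and -0.83 with an adjusted p of 0.0409 in limma without uninduced replicate 1).

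For the transcription factors themselves no RNA difference passed the threshold with all 6 arrays. Hif1a had signals of 5400, 5375 and 6280 on the induced arrays, against 4844, 7209 and 7290 on the uninduced arrays (-0.16 ± 0.21). Myc had signals of 5450, 5628 and 5112 on the induced arrays, against 4798, 6131 and 6325 on the uninduced arrays (-0.08 ± 0.17). The groups overlapped for both, and also for Arnt, the partner of HIF (0.17 ± 0.22), Mlx (0.33 ± 0.17) and Nfe2l2, which encodes NRF2, a known activator of pentose phosphate genes (0.01 ± 0.17). Other probe sets above background gave 0.00 and 0.62 for Hif1a, -0.44 to -0.08 for Arnt, 0.54 for Mlx and -0.48 for Nfe2l2. The sign for Hif1a, Arnt and Nfe2l2 thus depends on the probe set. Epas1 was below background.

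The 16 measured HIF targets outside glycolysis, given for comparison, had negative log2 fold changes, as 55.9% of all genes did, with a median of -1.26. Of these, Adm (-0.02) and Car9 (-0.03) were near 0, Adm was 0.13 without uninduced replicate 1, and Adm, Egln3 and P4ha2 were not above background. Bhlhe40, a transcriptional repressor, fell past the threshold with all 6 arrays (-2.32 ± 0.23, limma adjusted p of 0.0396), where 0.0715% of all genes did. This call was lost with the replicate block, with a limma adjusted p of 0.198. It was also lost with a pseudocount of 1 and without induced replicate 2, uninduced replicate 2 or uninduced replicate 3, where 0 genes passed. Without induced replicate 3 it was lost too, since 0 lower genes passed. Ddit4, which restrains mTORC1, and Vegfa, an angiogenic growth factor, came next by p, with log2 fold changes of -2.00 ± 0.31 and -1.26 ± 0.20 and limma adjusted p-values of 0.0830 and 0.0847. Without uninduced replicate 1, 12 of the 16 were lower past the threshold, where 4.77% of all genes were. The mean level of the 16 genes was 8.73, 8.81 and 8.79 on the induced arrays, against 9.45, 10.60 and 10.45 on the uninduced arrays. By this mean, uninduced replicate 1 lay between the induced arrays and the other uninduced arrays, whereas its mean for glycolysis lay within the induced range. By gene its position varied, from within the induced range for P4ha1 and Higd1a to above every other array for Vegfa. The median difference over the list was -0.30 within the arrays numbered 1 and -1.73 within those numbered 2 and 3. The part of these HIF targets in the values of the glycolytic genes was not tested.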

How the data were processed

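RNA of 6 Ba/F3 cultures, 3 induced and 3 uninduced, was measured on 1 array each, and groups and replicate numbers came from the labels' titles. The authors deposited linear signal intensities, made with Affymetrix Expression Console 1.4.1 per the submitters' processing notes. The sources used here do not name the method that summarised the probes. With 2% trimmed at each end, every array averaged 500, and median signals ran from 46.3 to 63.8. No detection calls came with the values.

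Levels are log2(signal + 16) of these deposited intensities, not normalized again. The fit held none of the 64 control probe sets. Of the other 45037 probe sets, 34945 had exactly 1 symbol (932 several, 9160 none), and the one with the highest mean stood for its gene. Entrez numbers linked 34741 of them to the mouse gene table of GRCm38.p6. Many glycolytic genes have processed pseudogenes, which can share probes.

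Groups were compared with limma 3.58.1 in R 4.3.3 (lmFit, then eBayes, with 4 residual degrees of freedom, a two-sided test and Benjamini-Hochberg adjustment across the 18193 genes at 0.05). The procedure was tested on simulated data in which values varied independently between genes and arrays. An array that departs from its group in many genes at once was not simulated. The labels speak of a triplicate without naming separate experiments, so the p-values reflect only how these cultures varied, which may be technical, and 3 arrays a group limit the precision. The members and lists were chosen with earlier results of these data known. The text names every member and regulator, and other pathway genes whose groups did not overlap above background or that complete an isoenzyme family. Of the HIF targets it names the 3 with the smallest p, and others that show a limit or the spread of that list. Alternatives were quantile normalization, median centring, a replicate block, low-signal filters (25th percentile or median), other choices of probe set, trended and robust variance, pseudocounts of 1 and 64, and leaving out each array or both replicate 1 arrays. Promoters are RefSeq's. Figures were drawn with matplotlib 3.10.9.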

Additional observations from a re-analysis of the deposited data

How the results depend on the processing

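The number of genes past the threshold in limma, 34 with all 6 arrays, was 0 with the replicate block and with a pseudocount of 1 (3269 and 2807 at an unadjusted p under 0.05), 19 with the most variable probe set, 69 with the filter at the 25th percentile, 742 with the filter at the median, 549 with trended and robust variance, 255 with a pseudocount of 64 and 1477 without both replicate 1 arrays. Leaving out 1 array gave 0 to 1453, with 0 without induced replicate 2, uninduced replicate 2 or uninduced replicate 3 (2224, 2093 and 2006 at an unadjusted p under 0.05), 1 without induced replicate 3, 12 without induced replicate 1 and 1453 without uninduced replicate 1. The share of higher genes among the calls, 61.8% with all 6 arrays, was 80.6% with median centring and 40.3% without uninduced replicate 1. Members lower past the threshold, 0 with all 6 arrays, were 2 (Slc2a3 and Pfkm) with the filter at the median, trended and robust variance or a pseudocount of 64, and 9 without both replicate 1 arrays, Pkm in place of Aldoa. Leaving out 1 array gave 0 to 9, with 9 only without uninduced replicate 1. No member was higher past the threshold under any of these 17 alternatives. The median of the lactate genes was -0.20 when probe sets were averaged and -0.15 with the most variable one, and that of the pentose phosphate genes was 0.00 and -0.01. The medians of the transporters (-1.34 to -1.01) and of glycolysis (-0.85 to -0.38) were negative under all 17. Of 489 single values of members, 17 reversed in sign, in 7 genes and with no call on either side: Hk1 (0.04), Ldhb (0.05), Rpe (-0.01) and Tkt (-0.24) with the most variable probe set, Tkt (-0.01) with the mean of probe sets, Pfkfb2 (-0.14) and Pgls (-0.05) without both replicate 1 arrays, Pgls with quantile normalization (-0.03) and a pseudocount of 64 (0.00), and, on leaving out 1 array, Slc2a6 (range -0.51 to 0.57), Pfkfb2 (-0.21 to 0.15) and Pgls (-0.14 to 0.09). The filters left fewer genes to test, and the cause of the changes under the alternatives, the filters included, was not tested. With the replicate block 0 of the 29 members passed and 11 had an unadjusted p under 0.05, where 3269 of all 18193 genes did. The numbers do not pair the arrays by the labels: the deviations of same-numbered arrays from their group means correlated at 0.173, 0.078 and 0.084, and each array correlated best with its own number. Signals below 42.1 cannot be told from those of silent genes, which limits Aldoc, Eno2 and Slc16a3.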
